A study of Rattus norvegicus with 9 samples.

Results

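To describe the complement system of the ganglion, the 9 rows for C1qa, C1qb, C1qc, C1r, C1s, C2, Cfb, C3 and C5ar1 were taken by gene symbol from a table of 20413 genes measured by RNA-Seq in ipsilateral L4–6 dorsal root ganglia (DRGs). DRGs contain the sensory neurons of the hind limb together with satellite glia, Schwann cells, fibroblasts and resident macrophages. All rats were male, of the Sprague Dawley strain and 8–10 weeks old, and their ganglia were taken on day 10 after perfusion with saline. The Sham group, labelled Con in the repository, was anesthetized and had a cut O-ring around the ankle that left the blood flow open. The chronic post-ischemia pain (CPIP) group had the blood flow to the hind paw blocked by a tight O-ring for 3 h, followed by reperfusion. The CPIP+EA group (EA-treated rats) had the same ischemia and 100 Hz electroacupuncture (EA) at the Zusanli and Kunlun acupoints of both hind limbs, once a day for 10 days. Needles without current, or EA without ischemia, were not among the groups analysed here. Each group had 3 libraries from separate rats. Each value is an FPKM, a fragment count corrected for transcript length and for how many fragments mapped in that library, so that levels of different genes can be set side by side.

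Complement is a cascade of plasma and tissue proteins that tags microbes, debris and synapses for removal. The classical pathway starts with C1, in which the recognition molecule C1q, built from the chains encoded by C1qa, C1qb and C1qc, carries the proteases C1r and C1s. C1s cleaves C4 and C2, and their fragments form an enzyme that splits C3. Factor B, encoded by Cfb, gives the protease of the alternative pathway, which amplifies C3 cleavage, and C5ar1 encodes the receptor for the fragment C5a. In nervous tissue C1q is known as a product of macrophages and microglia, whereas C1r and C1s are abundant in fibroblasts.

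All 9 genes had an entry among the RefSeq genes of the rat (build GRCr8), and a promoter sequence was available for 4 of them. The 250 bases before each start are shown for these 4, which cover the recognition part of C1, 1 of its proteases and C3. They are C1qa at chr5:154419934-154420183, C1qb at chr5:154407828-154408077, C1r at chr4:159098763-159099012 and C3 at chr9:2201340-2201589. C1r lies on the plus strand and the other genes lie on the minus strand, and each sequence runs 5′ to 3′ towards the gene. Capitals mark each match to 1 of 5 motifs, searched on both strands.
C1qa: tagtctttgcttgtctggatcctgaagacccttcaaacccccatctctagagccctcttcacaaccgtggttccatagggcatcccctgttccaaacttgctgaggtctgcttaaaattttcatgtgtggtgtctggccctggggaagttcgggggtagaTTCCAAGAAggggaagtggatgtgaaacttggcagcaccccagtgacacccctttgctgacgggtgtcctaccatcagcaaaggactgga
C1qb: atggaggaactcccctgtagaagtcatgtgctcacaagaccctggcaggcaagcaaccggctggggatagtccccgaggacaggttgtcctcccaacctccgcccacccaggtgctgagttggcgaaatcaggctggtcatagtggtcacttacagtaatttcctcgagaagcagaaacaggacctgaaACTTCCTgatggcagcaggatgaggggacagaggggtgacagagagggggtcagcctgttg
C1r: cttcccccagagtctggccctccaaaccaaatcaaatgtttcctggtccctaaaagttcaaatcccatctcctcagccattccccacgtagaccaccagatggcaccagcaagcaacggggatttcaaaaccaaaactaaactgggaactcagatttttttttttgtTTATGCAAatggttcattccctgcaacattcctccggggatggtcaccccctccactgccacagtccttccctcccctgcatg
C3: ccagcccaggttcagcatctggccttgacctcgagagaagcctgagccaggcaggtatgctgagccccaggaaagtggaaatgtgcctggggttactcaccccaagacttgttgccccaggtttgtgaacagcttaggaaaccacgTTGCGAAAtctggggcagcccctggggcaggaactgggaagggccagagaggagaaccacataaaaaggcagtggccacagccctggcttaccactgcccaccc
The C1qa promoter held a STAT motif (TTCNNNGAA) from 90 to 82 bases before the start, and STAT proteins carry cytokine signals. The C1qb promoter held a motif of ETS factors such as PU.1 (AGGAAGT), the myeloid regulator, on the opposite strand from 61 to 55 bases before the start. The C1r and C3 promoters each held a C/EBP motif (TTGCNNAA), for C1r on the opposite strand from 83 to 76 bases and for C3 from 104 to 97 bases before the start. C/EBP proteins are regulators of acute-phase genes. Of 33469 promoters of the same length, 7.67% held the STAT motif, 7.08% the ETS motif and 9.22% the C/EBP motif. The AP-1 motif (TGANTCA, in 6.34% of all promoters) and an IRF motif (in 3.41%) had no match in these 4 windows. These are matches of letters and not sites of binding. The promoters of C1qc, C1s, C2, Cfb and C5ar1 are not shown. By position in GRCr8, C1qb, C1qc and C1qa were consecutive genes, C1r was next to C1s and C2 was next to Cfb. C1r overlapped LOC102553847 and C2 overlapped Zbtb12, which was listed at 1.14 to 2 FPKM, and whether the counting used strand is not given in the sources used here.

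Before the comparisons, the libraries were inspected. The sum of FPKM over all genes ranged from 445647 to 482940 per library, and log2 values of any pair of libraries correlated across genes with r of 0.977 to 0.990, where genes are not independent replicates. Nefl (neurofilament light chain), a neuronal gene, was at 2352 to 3254 FPKM, so the libraries carried a defining marker of the labelled tissue. Hepatocyte markers, listed because the liver is the main source of plasma complement, summed to 7.67 to 9.44 FPKM for Sham, 12.94 to 15.31 for CPIP and 11.35 to 16.1 for CPIP+EA, and Fgb (fibrinogen beta) was at 0 in 5 of 9 libraries. The third library of CPIP+EA stood apart for complement. All 9 complement genes had their highest value in it, against 20.3% of the 17187 genes tested. The second library of CPIP+EA had the lowest value for 4 of 9, against 10.4%. With the third CPIP+EA library set aside, the second CPIP library was highest for 6 of 9, against 11.9%, and its skeletal muscle markers summed to 97.67 FPKM, against 5.74 to 30.93 in the other 8 libraries. Neutrophil markers (9 genes) summed to 645 FPKM in the third CPIP+EA library, against 35.8 to 272 in the other 8 libraries, and S100a9, the most abundant of them, ranged from 14.1 to 272 FPKM. Macrophage markers (11 genes, the most abundant being Fcer1g) summed to 185 FPKM there, against 99.04 to 137 elsewhere. All 9 neutrophil markers and 7 of 11 macrophage markers had their highest value in that library, whereas 0 of 9 neuron markers did. Of the macrophage markers, Cd163, Mrc1, Cx3cr1 and Adgre1 were highest in other libraries. Csf1r was at 18.63 FPKM in the second CPIP library and 18.85 FPKM in the third CPIP+EA library. Fibroblast markers (7 genes, the most abundant being Dcn) summed to 1123 FPKM there, within the 558 to 1317 FPKM of the other libraries. For the 9 genes, differences of CPIP+EA from the other groups are given with and without it, and the part of neutrophil or macrophage RNA in them was not tested. In bulk tissue, more cells of a type and more RNA per cell cannot be told apart.

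The plot of FPKM by group shows every value of the 9 genes. Averaged over the 9 libraries, C1qa was the most abundant at 44.7 FPKM, followed by C1qc (38.1), C1s (35.6), C1r (28.4), C1qb (21.2), C2 (10.9), C5ar1 (3.47), Cfb (2.87) and C3 (2.69). C1qa exceeded C1qc in all 9 libraries (FPKM ratio 1.09 to 1.39), and C1s exceeded C1r in all 9 (ratio of C1r to C1s 0.699 to 0.920). The order of C1qc and C1s was not fixed, since their ratio ran from 0.755 to 1.48, and C3, Cfb and C5ar1 changed places between libraries too. C1qa lay above 90.1% of the genes of the table and C3 above 42.1%. The recognition and protease genes of C1 were far above C3 itself in RNA, with C1qa at 13.0 to 25.8 times and C1s at 9.33 to 29.4 times the FPKM of C3.

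**Figure D1:**
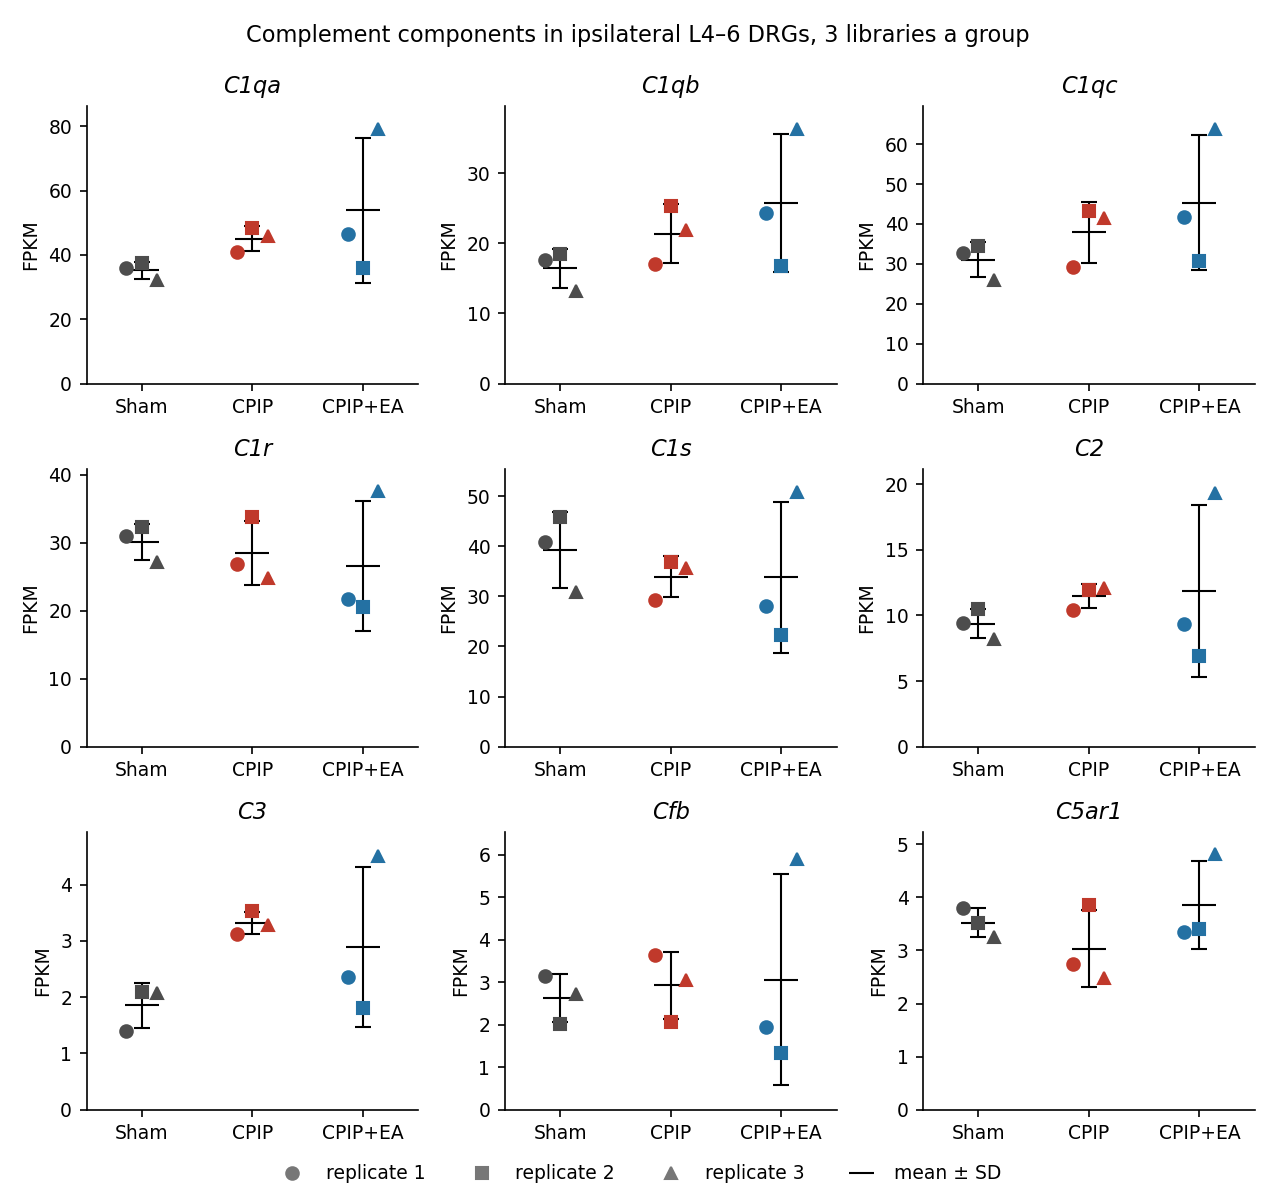
FPKM (vertical axis, from 0) of the 9 complement genes in the 3 libraries of Sham, CPIP and CPIP+EA, with symbols for the replicates and horizontal bars for mean ± SD (n = 3). The third library of CPIP+EA is the highest point in all 9 panels, and the CPIP libraries of C3 (3.13 to 3.53) lie above all Sham libraries (1.39 to 2.1).

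The first question was whether the ischemia model changed complement RNA in the ganglion. At an adjusted p under 0.01 and a change of at least 1.5-fold, 0 of the 9 genes were called between CPIP and Sham by limma, and 0.355% of all genes tested were. An unadjusted p under 0.05 was reached by 1 of 9, C3, against 8.66% of all genes, and by 2 of 9, C1qa and C3, against 10.5% without the third CPIP+EA library. Without the first Sham library 0 of 9 reached it, against 8.05%, and without the second CPIP library 0 of 9, against 7.29%. With only the Sham and CPIP libraries in the fit 3 of 9 did, against 10.4%. In 2 of 9, C1qa and C3, all CPIP libraries lay above all Sham libraries, against 7.98% of all genes. Without the first CPIP library there were 5 of 9, which added C1qb, C1qc and C2, against 12.3% of all genes. The median log2 fold change of the 9 genes was 0.27, that of all genes -0.0064, and 6 of 9 were above 0, as were 47.9% of all genes.

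C3 is the central component, and its cleavage is the step where all pathways meet. The Sham libraries held 1.39, 2.1 and 2.08 FPKM of C3, the untreated CPIP libraries 3.13, 3.53 and 3.29, and the EA-treated libraries 2.35, 1.81 and 4.51. Sham and CPIP did not overlap, and the spread within CPIP was small (3.32 ± 0.201 FPKM, SD, n = 3, against 1.86 ± 0.404 for Sham). On the log2(FPKM + 0.5) scale C3 was 0.71 higher in CPIP than in Sham, with a standard error of 0.26, a 95% confidence interval of 0.12 to 1.296 and a limma adjusted p of 0.448. The ratio of the group means was 1.79. Over the alternative settings, C3 differed by 0.56 to 0.83 on this scale and the adjusted p lay between 0.0931 and 0.709, so the threshold was passed in none. The lowest adjusted p of C3 came without the third CPIP+EA library. The hepatocyte marker sum, of which Serpina1 (the antiprotease alpha-1 antitrypsin) made up most, was likewise higher in every CPIP library than in Sham. Serpina1 was at 7.04, 5.16 and 6.73 FPKM in the Sham rats and 11.09, 14.38 and 11.92 FPKM in the untreated CPIP rats, 0.93 higher on the log2 scale (limma adjusted p = 0.0395, above the threshold). Of the other members, Alb (albumin) was at 0.12 to 0.4 FPKM in these libraries and at 0.85 to 1.44 with EA, Apoa1 differed by 0.041 and Ttr by -0.81 between CPIP and Sham (adjusted p = 0.987 and 0.812), and Fgb was below the filter. The part of these genes' source in the level of C3 was not tested.

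C1q forms the recognition part of C1. For C1qa, Sham gave 35.8, 37.6 and 32.3 FPKM, untreated CPIP 40.8, 48.4 and 45.9, and EA-treated CPIP 46.4, 35.99 and 79.1. For C1qb, Sham gave 17.6, 18.4 and 13.2 FPKM, untreated CPIP 17.0, 25.3 and 21.9, and EA-treated CPIP 24.3, 16.7 and 36.2. For C1qc, Sham gave 32.7, 34.5 and 26.0 FPKM, untreated CPIP 29.2, 43.2 and 41.4, and EA-treated CPIP 41.6, 30.6 and 63.9. The CPIP libraries of C1qa were all above Sham, whereas for C1qb and C1qc the first CPIP library fell within the Sham range. CPIP exceeded Sham by 0.35 (SE 0.23) for C1qa, 0.37 (SE 0.26) for C1qb and 0.27 (SE 0.25) for C1qc on the log2 scale, with limma adjusted p of 0.804, 0.821 and 0.893. The proportions of the chains varied little over the libraries. C1qa made up 41.3 to 46.9% of the summed C1q FPKM, C1qb 18.5 to 21.7% and C1qc 33.6 to 38.2%. C1qb and C1qc correlated over the 9 libraries with r = 0.988 and rho = 0.983, and over 8 libraries without the third of CPIP+EA with r = 0.976 (descriptions with no p).

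C1r and C1s are the proteases that C1q carries. C1r gave 31.0, 32.3 and 27.2 FPKM in the Sham libraries, 26.9, 33.8 and 24.8 in those of untreated CPIP, and 21.7, 20.6 and 37.6 in those with EA. C1s gave 40.9, 45.8 and 30.9 FPKM in the Sham libraries, 29.2, 36.9 and 35.6 in those of untreated CPIP, and 28.2, 22.4 and 50.8 in those with EA. Both genes overlapped between all groups, and the first and second EA-treated libraries were the lowest for both. From Sham to CPIP, C1r differed by -0.089 on the log2 scale (95% confidence interval -0.57 to 0.39, limma adjusted p = 0.971) and C1s by -0.19 (-0.80 to 0.41, adjusted p = 0.939). C1r and C1s correlated with r = 0.897 over the 9 libraries and 0.852 without the third CPIP+EA library. C1s and the C1q chains correlated with r of 0.509 to 0.576 over all libraries, but 0.0713 to 0.279 without that library.

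C2 and Cfb are paralogous proteases that supply the active site of the C3-cleaving enzymes. Sham libraries held 9.4, 10.5 and 8.23 FPKM of C2, untreated CPIP libraries 10.4, 11.9 and 12.1, and EA-treated ones 9.36, 6.88 and 19.3. Of Cfb, Sham libraries held 3.14, 2.02 and 2.73 FPKM, untreated CPIP libraries 3.65, 2.07 and 3.05, and EA-treated ones 1.94, 1.34 and 5.91. For C2 only the first CPIP library was inside the Sham range, and for Cfb the groups overlapped widely. C2 was 0.28 higher after CPIP (95% confidence interval -0.39 to 0.96, limma adjusted p = 0.913) and Cfb 0.12 higher (-0.81 to 1.04, adjusted p = 0.980). Cfb had the widest spread of the 9 within the EA-treated group, with a coefficient of variation of 81.1%, which was 25.9% over the other 2 libraries (below the 26.1% of C1qb).

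C5ar1, the receptor through which C5a attracts and activates myeloid cells, was the only receptor among the 9. Its levels were 3.8, 3.51 and 3.25 FPKM for Sham, 2.75, 3.86 and 2.49 for untreated CPIP, and 3.35, 3.41 and 4.82 for EA-treated CPIP. All groups overlapped. C5ar1 differed by -0.20 from Sham to CPIP (95% confidence interval -0.59 to 0.19, limma adjusted p = 0.876) and by 0.31 from CPIP to CPIP+EA (-0.085 to 0.70, adjusted p = 0.996), the latter being 0.15 without the third CPIP+EA library. Its correlation with C3 was r = 0.123 over the 9 libraries and -0.49 without the third of CPIP+EA.

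**Figure D2:**
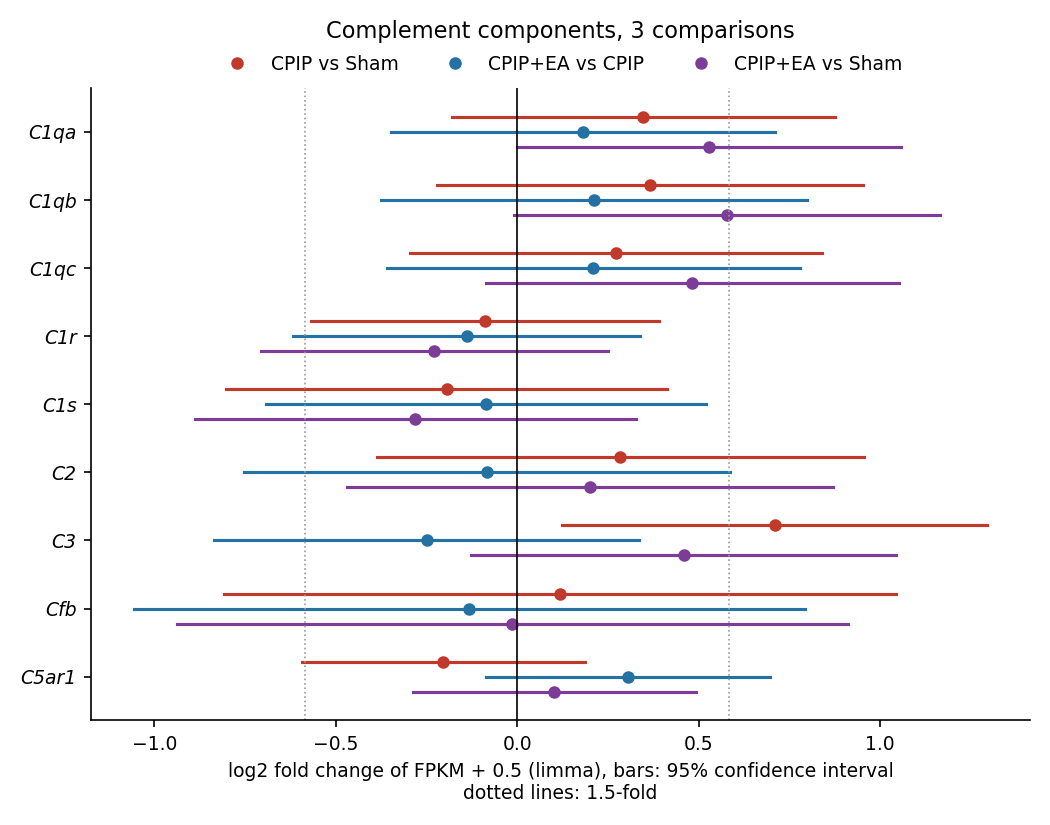
Log2 fold changes of FPKM + 0.5 from limma (points) with their 95% confidence intervals (lines) for the 9 complement genes in the 3 comparisons, with dotted lines at a 1.5-fold change. For CPIP against Sham only the interval of C3 (0.12 to 1.296) lies clear of 0, and for CPIP+EA against CPIP every interval includes 0.

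The second question was whether EA changed complement RNA in CPIP rats. Between CPIP+EA and CPIP limma called 0 of the 9 genes and 0% of all genes, and 0 of 9 had an unadjusted p under 0.05, against 4.29% of all genes. In 0 of 9 were the libraries of these groups free of overlap, against 8.23% of all genes. The log2 fold changes ran from -0.25 for C3 to 0.31 for C5ar1, with a median of -0.083 against 0.012 over all genes, and the adjusted p was 0.996 for each. The 95% confidence interval for C3 was -0.84 to 0.34 and that for C1qa was -0.35 to 0.71, so neither shows that the level stayed the same.

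Single libraries of CPIP+EA decided the sign for most of the 9 genes in this comparison. Without the third, the remaining CPIP+EA libraries lay below all CPIP libraries for 5 of 9 genes, C1r, C1s, C2, Cfb and C3, against 11% of all genes. The log2 fold changes then became -0.57 for C3, -0.49 for C2, -0.66 for Cfb, -0.41 for C1r and -0.42 for C1s. By limma 0 of 9 passed the threshold, with an adjusted p of 0.618 for C3, C2 and C1r, 0.672 for Cfb and 0.683 for C1s. At an unadjusted p under 0.05 there were then 5 of 9, the same 5 genes, against 7.27% of all genes. Without the second CPIP+EA library instead, the differences were 0.015 for C1r, 0.16 for C1s, 0.22 for C2, 0.24 for Cfb and -0.013 for C3, and 0 of 9 had an unadjusted p under 0.05, against 2.99% of all genes. Without the second CPIP library 1 of 9 had one, C5ar1, which was then 0.47 higher with EA, against 2.92% of all genes. The C1q chains differed by 0.18 for C1qa, 0.21 for C1qb and 0.21 for C1qc with all libraries. These values were -0.13, -0.065 and -0.066 without the third library, and 0.43, 0.48 and 0.46 without the second. Of the C3 values that remained without the third library, 2.35 FPKM lay between Sham and CPIP and 1.81 FPKM lay inside the Sham range. The same CPIP libraries enter this comparison and the one with Sham, and the values of C3 in them are therefore not independent.

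The CPIP+EA group was also set against Sham. By limma 0 of 9 genes were called, against 0.483% of all genes, and 1 of 9, C1qa, had an unadjusted p under 0.05, against 12.2% of all genes. The libraries overlapped for all 9, whereas 16.2% of all genes had none. The C1q chains were higher by 0.53 for C1qa, 0.58 for C1qb and 0.48 for C1qc on the log2 scale (limma adjusted p = 0.408, 0.414 and 0.494). These values were 0.21, 0.30 and 0.21 without the third CPIP+EA library, and 0.78, 0.85 and 0.73 without the second. Without the second, 4 of 9 (the C1q chains and C3) had an unadjusted p under 0.05, against 10.4% of all genes, and without the third 2 of 9 (C1r and C1s), against 13.8%. Without any single Sham or CPIP library, or the first CPIP+EA library, 0 of 9 did. Of all genes, from 1664 of 17195 (without the second Sham library) to 2311 of 17184 (without the first CPIP+EA library) did. C1r and C1s differed by -0.23 and -0.28 with all libraries (limma adjusted p = 0.733 and 0.741). Without the third CPIP+EA library they differed by -0.50 and -0.61 (adjusted p = 0.116 and 0.161), and C1r, C1s and Cfb, 3 of 9 genes, then lay below every Sham library, against 14.2% of all genes. C3 was 0.46 above Sham with all libraries (adjusted p = 0.529) and 0.14 above Sham without that library. C2, Cfb and C5ar1 differed from Sham by 0.20, -0.014 and 0.10 with all libraries, and by -0.20, -0.55 and -0.049 without it.

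Ratios of genes within a library do not depend on how the library was scaled. They were examined after the values were seen, so they are given as descriptions with no test. The FPKM ratio of C1qa to C1s was 0.877, 0.821 and 1.04 for Sham, 1.40, 1.31 and 1.29 for untreated CPIP, and 1.65, 1.61 and 1.56 for EA-treated CPIP. The groups were in rising order without overlap, and the third CPIP+EA library, the highest for each gene alone, was the lowest of its group in this ratio. The mean ratio was 0.914 ± 0.116 for Sham, 1.33 ± 0.056 for CPIP and 1.61 ± 0.045 for CPIP+EA (SD, n = 3). The ratio of C1qb to C1s had means of 0.421 ± 0.016, 0.627 ± 0.053 and 0.775 ± 0.078, and that of C1qc to C1s 0.799 ± 0.043, 1.11 ± 0.097 and 1.37 ± 0.110, in the same order of groups and also without overlap. Of the 36 pairs that the 9 genes form, 3 had the groups in the order Sham, CPIP, CPIP+EA or its reverse without overlap, or 8.33%, against 0.711% of all pairs of 13809 genes. In any order of the groups 4 did, or 11.1%, against 0.994% of all pairs. The fourth was C3 over C1s, in which CPIP+EA lay between the others, with 0.0340 to 0.0673 for Sham, 0.0810 to 0.0889 for CPIP+EA and 0.0925 to 0.107 for CPIP. All 4 pairs share C1s, and the C1q chains varied together, so they are not independent.

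C1s was ordered from Sham through CPIP to CPIP+EA, or in reverse, against 14 of the 13808 other genes. This was 0.101%, below the 0.711% of all pairs. C1r was so ordered against 15 genes (0.109%), C1qa against 122 (0.884%), C1qb against 51 (0.369%) and C1qc against 39 (0.282%). Against C1s, 13 genes rose from Sham through CPIP to CPIP+EA, 3 of them the C1q chains. The others were Ptprc (the leukocyte antigen CD45), Fcgr3a (an Fc receptor), Clec12a (a myeloid lectin), Cebpa (a myeloid transcription factor), Mnda, Bcl2a1, Dapp1, Jaml, Lgals3bp and RGD1562652. The 1 gene that fell against C1s was Tbx18, a transcription factor of fibroblast-like and mural cells. The summed C1q chains over the summed C1r and C1s gave 1.16 to 1.23 for Sham, 1.55 to 1.81 for CPIP and 1.94 to 2.25 for CPIP+EA. Against C1r alone, each C1q chain overlapped between CPIP and CPIP+EA. C1qa over C1r gave 1.16 to 1.19 for Sham, 1.43 to 1.85 for CPIP and 1.75 to 2.14 for CPIP+EA. Over Serping1, the gene for the C1 inhibitor that removes C1r and C1s from C1, the summed C1q gave 1.34 to 1.58, 1.79 to 1.98 and 2.47 to 2.85.

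Each side of this ratio was set against the markers of a cell type. Against the summed macrophage markers, the summed C1q was 0.722 to 0.850 for Sham, 0.794 to 0.856 for CPIP and 0.768 to 0.970 for CPIP+EA, which overlapped. Fcer1g, Tyrobp and Aif1 (means of 32.8, 24.6 and 19.8 FPKM) weighed most in this sum, so single macrophage markers may give another order. Against the summed fibroblast markers, the summed C1r and C1s was 0.0590 to 0.0654 for Sham, 0.0595 to 0.0720 for CPIP and 0.0769 to 0.0787 for CPIP+EA. Relative to this sum, C1r and C1s together were higher in all EA-treated libraries than in any other library. Dcn, Col3a1 and Col1a1 (means of 489, 177 and 159 FPKM) weighed most in it, so single fibroblast markers may give another order. The fibroblast markers themselves summed to 985 to 1317 FPKM for Sham, 839 to 1114 for CPIP and 558 to 1123 for CPIP+EA. Of these 7 genes, 5 had an unadjusted limma p under 0.05 with lower values after EA than in Sham, against 5.63% of all genes, and 0 were called, against 0.483%. Relative to Sham, their median log2 fold change was -0.22 in untreated CPIP and -0.55 with EA. Lum, the gene for the matrix proteoglycan lumican, differed by -0.64 in the latter (adjusted p = 0.0839). Schwann cell markers (5 genes) had medians of 0.049 and -0.46 in these comparisons. In both, 0 of 5 had an unadjusted limma p under 0.05, against 8.66% and 12.2% of all genes. Between CPIP+EA and CPIP the Schwann cell markers had a median of -0.48 and the fibroblast markers one of -0.31. Relative to Sham, the macrophage markers had medians of 0.15 in CPIP and 0.32 in CPIP+EA, with 0 of 11 called in both, against 0.355% and 0.483% of all genes. At an unadjusted p under 0.05, 1 of 11 was higher in CPIP than in Sham, against 4.61% of all genes, and 3 of 11 were higher with EA than in Sham, against 6.59%. In 4 of 11 all CPIP libraries lay above Sham, against 7.98%. Without the third CPIP+EA library, the comparison of CPIP+EA with Sham had 1 of 11 macrophage markers higher (7.18% of all genes) and 7 of 7 fibroblast markers lower (6.62%) at this p, with medians of 0.035 and -0.86. Between CPIP and Sham there were then 4 of 11 macrophage markers higher (5.52%), and between CPIP+EA and CPIP 6 of 7 fibroblast markers lower (4.29%). The part of these cell types in the change of ratio was not tested.

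**Figure D3:**
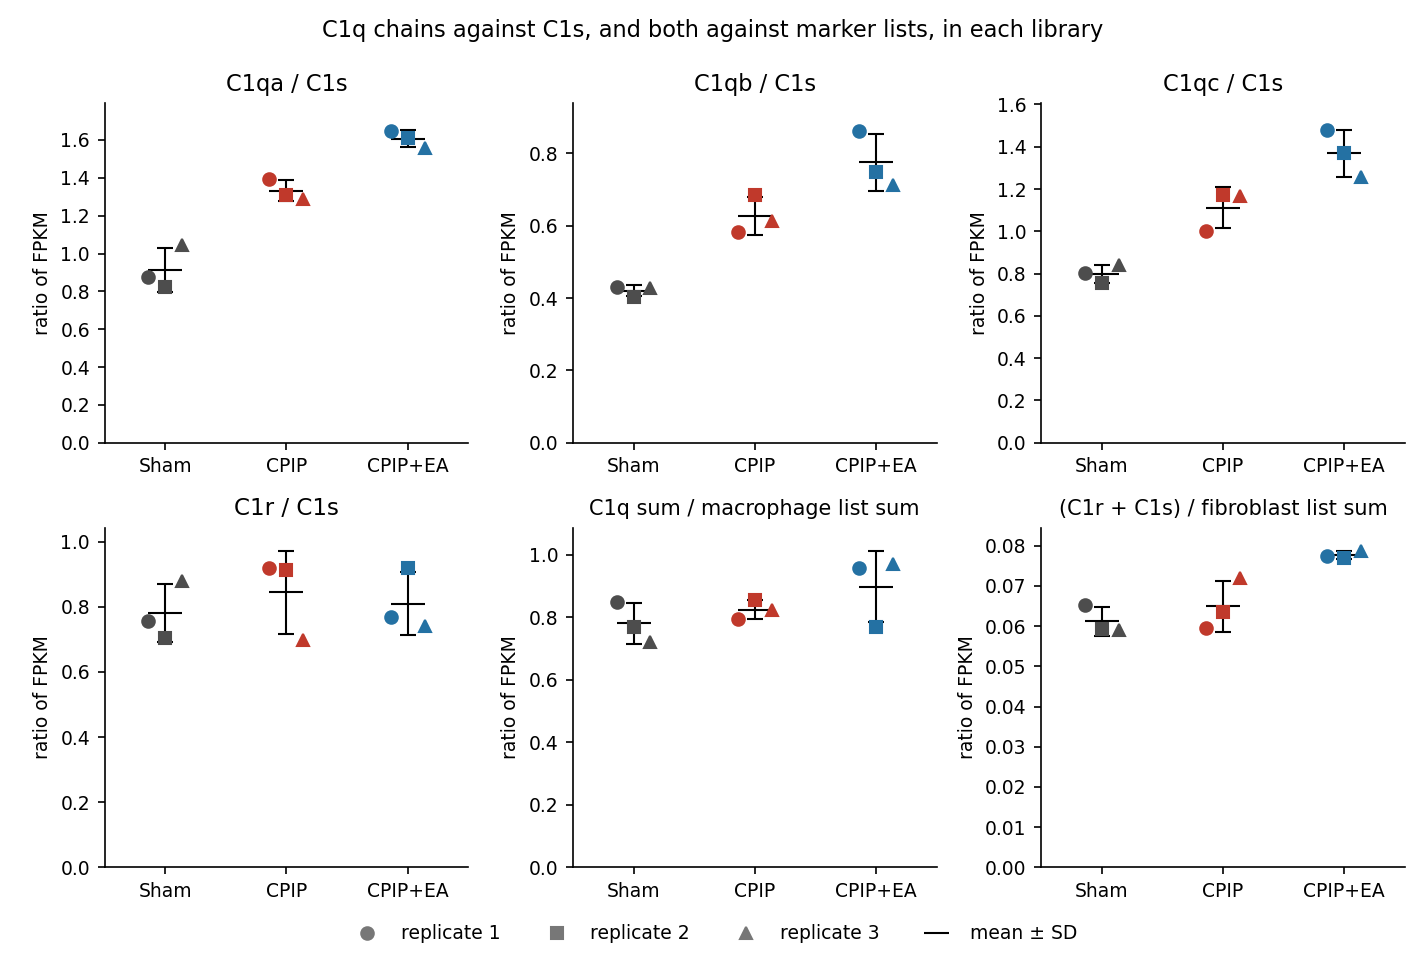
Ratios of FPKM within each library (vertical axes, from 0) for Sham, CPIP and CPIP+EA, with symbols for replicates and bars for mean ± SD (n = 3). In the upper panels the C1q chains rise against C1s from Sham through CPIP to CPIP+EA without overlap, whereas C1r against C1s (0.699 to 0.920) and C1q against the macrophage markers (0.722 to 0.970) overlap.

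The wider complement system was read from a list of 48 further genes, of which 44 were in the table and 36 passed the filter of a mean of at least 0.1 FPKM. By limma 0 of the 36 were called in any comparison, against 0.355%, 0% and 0.483% of all genes for CPIP against Sham, CPIP+EA against CPIP and CPIP+EA against Sham. Between CPIP and Sham 1 had an unadjusted p under 0.05 with a higher value and 3 with a lower value, against 4.61% and 4.06% of all genes. Between CPIP+EA and CPIP there was 1 in each direction, against 2.22% and 2.07%, and between CPIP+EA and Sham there were 3 higher and 4 lower, against 6.59% and 5.63%. Without the third CPIP+EA library there were 6 in either direction between CPIP and Sham (10.5% of all genes), 6 between CPIP+EA and CPIP (7.27%) and 7 between CPIP+EA and Sham (13.8%). Leaving out each library in turn gave 2 to 6, 1 to 6 and 5 to 7 of 36. The counts over all genes (17163 to 17201 tested) moved too in these fits, at 1126 to 1798, 501 to 1248 and 1664 to 2368. The values of single genes that follow are with all libraries.

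Among the other initiating genes, C4a and C4b encode C4, the substrate of C1s, and as near-identical copies they can exchange reads. For C4a the Sham libraries had 7.22, 8.87 and 8.49 FPKM, the untreated CPIP libraries 13.5, 11.6 and 12.2, and the EA-treated ones 7.54, 4.31 and 27.2. All CPIP libraries of C4a lay above Sham, as for C3, and CPIP+EA held both the lowest and the highest library. C4a was 0.58 higher after CPIP (95% confidence interval -0.57 to 1.72, limma adjusted p = 0.881), and the summed FPKM of both copies was 0.53 higher. C1rl, a C1r-like protease, was at 1.14 to 1.47 FPKM with EA and 1.65 to 1.79 in untreated CPIP, a log2 difference of -0.28 (adjusted p = 0.996), whereas Sham (1.63, 1.68 and 1.35 FPKM) overlapped both. In the lectin pathway, which starts from sugars on surfaces, the recognition genes Mbl1, Mbl2 and Colec10 were near 0, at means of 0.0056, 0.021 and 0.0011 FPKM. Its other genes were expressed. Of the ficolins, Fcnb averaged 11.8 FPKM (2.53 to 40.45) and Fcna 3.30 (1.37 to 8.3), both highest in the third CPIP+EA library. Means were 1.07 FPKM for Colec11 (a collectin), and 6.36 for Masp1 and 6.19 for Masp2 (the proteases). In the terminal pathway, which builds the membrane attack complex, C8a, C8b and C9 were also below the filter. C7 was at 13.8 to 16.5 FPKM for Sham and 9.92 to 12.6 for CPIP, a log2 difference of -0.42 (adjusted p = 0.517). C5, the source of the ligand of C5ar1, averaged 0.186 FPKM.

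Some of the regulators that protect host cells were far above the 9 genes in level. Cd59, which blocks the membrane attack complex, averaged 546 FPKM, and Cd55, which speeds the decay of the C3-cleaving enzymes, averaged 137 FPKM. Cd59 was at 461 to 492 FPKM for Sham, 551 to 599 for CPIP and 586 to 608 for CPIP+EA. It was 0.26 above Sham after CPIP (SE 0.071, limma adjusted p = 0.215) and 0.33 above Sham in the EA-treated group (adjusted p = 0.0653), without overlap of libraries in either. Cd55 had 169.9, 176.8 and 130.1 FPKM for Sham against 116.7, 122.6 and 92 with EA, a log2 difference of -0.52 (adjusted p = 0.218). Susd4, a membrane inhibitor of complement, was at 67.1 to 74.3 FPKM for Sham, 55.3 to 62.0 for CPIP and 57.6 to 61.7 for CPIP+EA. Its log2 difference from Sham was -0.26 in CPIP (adjusted p = 0.158) and -0.23 in CPIP+EA (adjusted p = 0.161). Cfi, the protease that inactivates C3b, was 0.46 higher in CPIP+EA than in Sham on the log2 scale (adjusted p = 0.396). C4bpb, a chain of the C4b-binding protein, was at 0.32 to 0.44 FPKM with EA and 0.06 to 0.22 in untreated CPIP, a log2 difference of 0.47 (adjusted p = 0.996), whereas Sham (0.54, 0.38 and 0.16 FPKM) overlapped both. Serping1 had 56.6, 57.2 and 53.3 FPKM for Sham, 48.7, 61.7 and 55.1 for CPIP and 45.5, 33.7 and 62.8 for CPIP+EA, with all groups overlapping.

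Among the receptors, C5ar2, another receptor for C5a, had 1.98, 2.1 and 2.04 FPKM for Sham, 2.19, 2.86 and 3.09 for CPIP and 2.42, 2.89 and 3.65 for CPIP+EA. All libraries of both ischemic groups lay above Sham, by 0.33 on the log2 scale for CPIP (limma adjusted p = 0.623) and 0.44 for CPIP+EA (adjusted p = 0.282). C3ar1, the receptor for C3a, averaged 1.49 FPKM, and the complement receptor integrins Itgam and Itgb2 averaged 1.63 and 3.01 FPKM. Of the 9 receptor genes that passed the filter, 7 had their highest value in the third CPIP+EA library, against 20.3% of all genes.

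**Figure D4:**
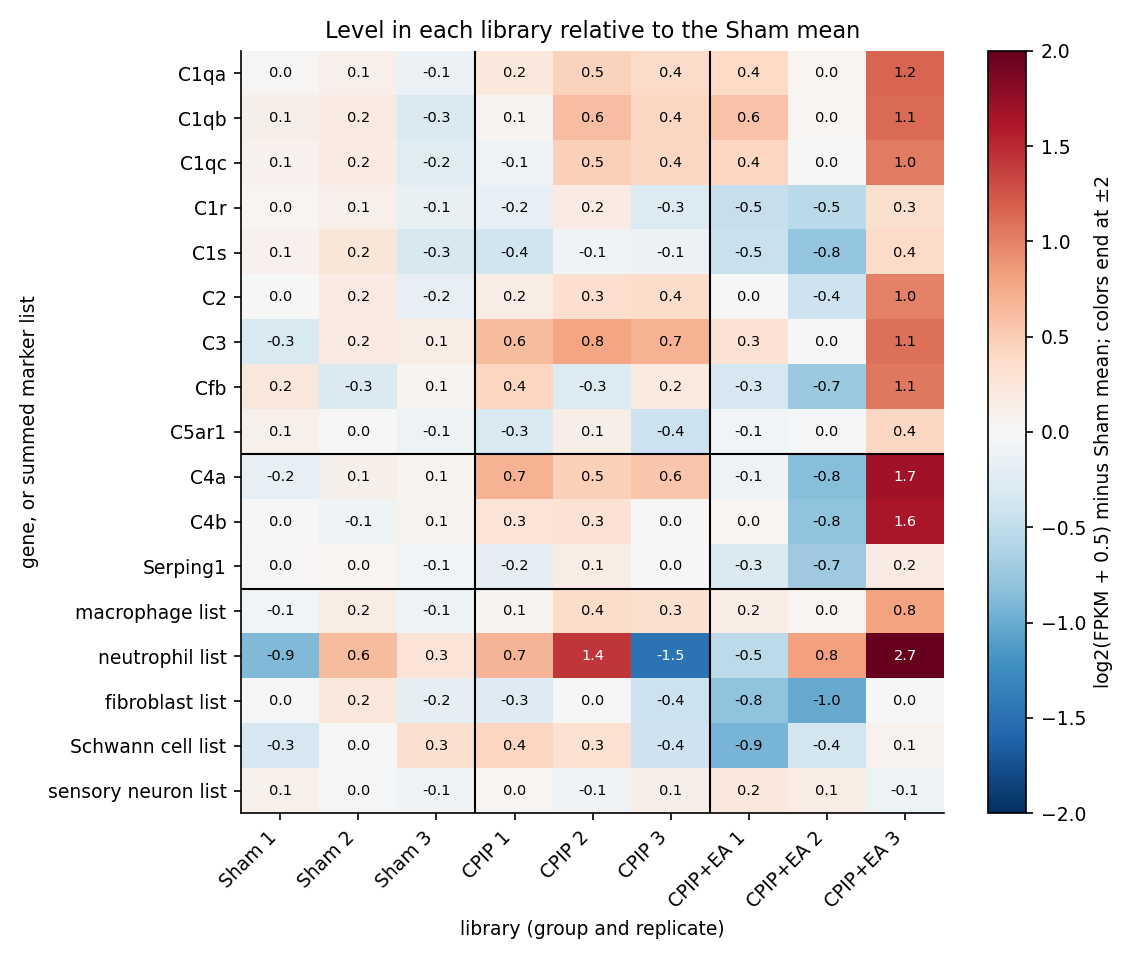
Level of each complement gene, of C4a, C4b and Serping1, and of summed marker lists in each of the 9 libraries, as the difference of log2(FPKM + 0.5) from the Sham mean (color and printed value). The third CPIP+EA library is red for the C1q chains, C2, C3, Cfb, C4a, C4b and the neutrophil and macrophage lists. The first and second CPIP+EA libraries are blue for C1r, C1s, Cfb, Serping1 and the fibroblast and Schwann cell lists.

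The genes whose pattern was most like that of C1qb, C3 and C1s were listed by the Pearson correlation of log2(FPKM + 0.5) over the 9 libraries among 13905 genes. For C1qb these were Ctss (cathepsin S, r = 0.951), Nckap1l (0.947), Mnda (0.938), Alkbh1 (0.935) and Pld4 (0.935). Ctss, a protease of antigen-presenting cells, was at 18.7 to 23.7 FPKM for Sham, 26.1 to 34.2 for CPIP and 26.95 to 48.7 for CPIP+EA. For C3 they were Tnfrsf1b (a TNF receptor, r = 0.969), Spi1 (the gene for PU.1, 0.956), RT1-DOb (an MHC class II gene, 0.956), Timp1 (a metalloprotease inhibitor, 0.941) and Elf1 (an ETS factor, 0.935). Timp1 shared with C3 the CPIP libraries above all Sham libraries, at 77.6 to 87.7 against 57.0 to 67.0 FPKM. For C1s they were Rcsd1 (r = 0.985), Slc22a18 (0.974), Sulf1 (a heparan sulfate sulfatase, 0.964), Ackr3 (a chemokine receptor, 0.945) and RGD1561778 (0.923). Without the third CPIP+EA library these correlations were 0.854 to 0.902 for C1qb, 0.907 to 0.955 for C3 and 0.910 to 0.980 for C1s. They are descriptions with no p.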

How the data were processed

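RNA-Seq was carried out on oligo(dT)-selected mRNA of ipsilateral L4–6 DRGs from 9 rats, 3 in each of the Sham, CPIP and CPIP+EA groups, as single-end reads on a BGISEQ-500. The authors filtered reads with SOAPnuke and deposited 1 table of FPKM values, rounded to 2 decimals. The aligner, genome build, annotation and strandedness are not given in the sources used here. The deposited table also holds the authors' own comparisons of groups (ratios on the log2 scale and p-values), which were not used. No read counts were used, so the error of counting behind each FPKM is unknown, and precision is set by how many libraries there are. Groups and replicate numbers were taken from the repository's labels.

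The test was limma 3.58.1 under R 4.3.3 on log2(FPKM + 0.5), in a single fit of the 9 libraries without covariates, using eBayes with the trend option. It covered the 17187 genes averaging 0.1 FPKM or more, among them all 9 complement genes. P-values are two-sided with Benjamini-Hochberg adjustment across those genes, and the threshold was an adjusted p under 0.01 with at least a 1.5-fold change. Fold changes on this scale understate the change of low genes. The fit was tested on simulated data. Same-numbered libraries of different groups deviated together (r over 0.1) in only 2 of 9 pairs, so replicate numbers were not taken as pairs. Alternatives were other pseudocounts, filters, scalings and forms of eBayes, a block, a fit of 2 groups, and each library left out. Sequences came from RefSeq (GRCr8), and tables and figures were made in Python 3.11.15 using pandas 2.3.3, numpy 2.4.6 and matplotlib 3.10.9.

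The complement genes, the pathway and marker lists and the tests were chosen with earlier results of these data known. Other pathway genes were named at an unadjusted p under 0.05 with no overlap of libraries between the groups compared. The 5 genes most like C1qb, C3 and C1s were named by Pearson r among those averaging at least 1 FPKM, and each marker list was represented by its most abundant gene. Other single macrophage and fibroblast markers, and the values of the Schwann cell list, were added after values were seen. C3ar1, Itgam, Itgb2, C4a, C4b, Serping1, C5, Mbl1, Mbl2, Colec10, Colec11, Fcna, Fcnb, Masp1, Masp2, C8a, C8b, C9, Fgb, Alb, Apoa1, Ttr, Serpina1 and Lum, the ratios and the genes named by them, the sum of C4a and C4b, and the counts of overlap and the correlations without a library, were chosen after values were seen.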

Additional observations from a re-analysis of the deposited data

How the results depend on the processing

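In every comparison 0 of the 9 complement genes and 0 of the 36 other complement genes were called by limma under each alternative run, with pseudocounts of 0.1 or 1, no filter or a mean of at least 1 FPKM, a TPM scale, quantile normalization, median centring, eBayes without a trend or with a robust one, only the 2 groups compared, and each library left out. At an unadjusted p under 0.05 the 9 genes had 1 for CPIP against Sham, 0 for CPIP+EA against CPIP and 1 for CPIP+EA against Sham. The latter was C1qa, whose unadjusted p lay on either side of 0.05 over the alternatives. These counts became 5 for CPIP+EA against CPIP without the third CPIP+EA library, and for CPIP+EA against Sham 4 without the second and 2 without the third. For CPIP against Sham the count was 2 without the third CPIP+EA library, 0 without the first Sham or the second CPIP library, and 3 (against 10.4% of all genes) with only the 2 groups compared. With only the 2 groups compared, C1qa had an adjusted p of 0.174 for CPIP against Sham, against 0.804 with all groups. With the replicate block, 0 of the 9 genes were called in each comparison, and all genes called fell from 61 to 26 for CPIP against Sham and from 83 to 42 for CPIP+EA against Sham, with 0 for CPIP+EA against CPIP in both. Replicate numbers are only numbers here, with correlations of same-numbered libraries from -0.24 to 0.30. With a pseudocount of 1, Cfb changed sign between CPIP+EA and Sham, from -0.014 to 0.0092.

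With each library left out in turn, the log2 fold change between CPIP and Sham ran from -0.22 to 0.0023 for C1r and from -0.035 to 0.31 for Cfb. Between CPIP+EA and CPIP it ran from -0.13 to 0.43 for C1qa, -0.065 to 0.48 for C1qb, -0.066 to 0.46 for C1qc, -0.41 to 0.015 for C1r, -0.42 to 0.16 for C1s, -0.49 to 0.22 for C2 and -0.66 to 0.24 for Cfb. Between CPIP+EA and Sham it ran from -0.20 to 0.51 for C2, -0.55 to 0.35 for Cfb and -0.049 to 0.18 for C5ar1. C3 kept its sign throughout, at 0.56 to 0.79 for CPIP against Sham. The cause of these shifts was not tested beyond the libraries left out.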
